A study of Mus musculus with 37 samples.

Results

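Lyz1, Mmp7, Ang4 and Itln1 encode secreted products of the Paneth cell other than the defensins, and their transcripts were followed in organoids grown from the jejunum of mice. The 4 genes were chosen by name, and each symbol had 1 entry in each of the 3 count tables, which held 27407, 20500 and 27547 genes. The 4 genes passed the filter on low counts in all 3 experiments. The study asked how vasoactive intestinal peptide (VIP), a neuropeptide of the enteric nervous system, acts on the intestinal epithelium at rest and after irradiation.

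In the first experiment, whole jejunal organoids of C57Bl6/J mice were left untreated (3 mice) or received 100 nM VIP for 72 h (4 mice), after the crypts had been given 24 h to form organoids. In the second, organoids of 4 Lgr5-EGFP-IRES-CreERT2 mice were left untreated or received 100 nM VIP for 72 h, and Lgr5-EGFP+ cells were sorted from them. In the third, organoids of 4 Lgr5-EGFP-IRES-CreERT2 mice were left without irradiation or received 6 Gy. Each was done with and without 100 nM VIP for 48 h, which in irradiated organoids was given after the dose. Lgr5-EGFP+ cells were then sorted again. The mice were adult males and females of 6 to 12 weeks. All groups are cultures of epithelium alone, without nerves, connective tissue or microbes, and all sorted cells carry the reporter allele, in which EGFP and a Cre recombinase are expressed from the Lgr5 locus. The same mouse number in treated and untreated samples is the same organoid line of 1 mouse, except that mouse 4 of the whole organoids had no untreated sample.

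Paneth cells sit at the base of the small intestinal crypt between the Lgr5+ stem cells, fill large granules with antimicrobial proteins and release them into the crypt lumen, and supply the stem cells with signals such as Wnt3. Their differentiation depends on Atoh1, which sets the secretory fate, and on Wnt signalling. Lyz1 is the lysozyme of the Paneth cell, which cuts the peptidoglycan of bacterial cell walls. Mmp7, or matrilysin, is the protease that activates the pro-alpha-defensins of the mouse by cleavage. Ang4 is a secreted ribonuclease of the angiogenin family with microbicidal activity. Itln1, or intelectin 1, is a lectin that binds microbial sugars and is made by Paneth and goblet cells. All of the values below come from bulk RNA, in which fewer cells of a type and less RNA per cell cannot be told apart.

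The genes lie on 4 chromosomes of the mouse build GRCm38, with Lyz1 at chr10:117287797-117292868 on the minus strand, Mmp7 at chr9:7692090-7699585 on the plus strand, Ang4 at chr14:51763878-51773590 on the minus strand and Itln1 at chr1:171518122-171535294 on the minus strand. Because the members moved together in the irradiated cells described below, their promoters are shown, from 250 bases before to 50 bases after the RefSeq start of transcription, 5′ to 3′ on the strand of the gene. Capitals mark, on either strand, the core of the TCF/LEF site of Wnt signalling (CTTTGA), the core of the CRE site of cAMP signalling (TGACG) and the AP-1 site (TGANTCA). The windows lie at chr10:117292819-117293118 for Lyz1, chr9:7691840-7692139 for Mmp7, chr14:51773541-51773840 for Ang4 and chr1:171535245-171535544 for Itln1.
Lyz1: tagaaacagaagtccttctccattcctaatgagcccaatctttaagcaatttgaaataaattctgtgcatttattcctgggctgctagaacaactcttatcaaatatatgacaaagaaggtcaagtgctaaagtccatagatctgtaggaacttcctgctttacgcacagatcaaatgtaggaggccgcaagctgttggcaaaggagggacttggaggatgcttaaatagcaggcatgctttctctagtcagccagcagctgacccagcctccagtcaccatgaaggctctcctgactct
Mmp7: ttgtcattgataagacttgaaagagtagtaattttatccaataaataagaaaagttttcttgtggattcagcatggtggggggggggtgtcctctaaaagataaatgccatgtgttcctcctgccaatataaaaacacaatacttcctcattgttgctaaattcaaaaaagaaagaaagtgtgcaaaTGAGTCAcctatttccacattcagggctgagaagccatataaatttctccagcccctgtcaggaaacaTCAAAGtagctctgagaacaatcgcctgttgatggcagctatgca
Ang4: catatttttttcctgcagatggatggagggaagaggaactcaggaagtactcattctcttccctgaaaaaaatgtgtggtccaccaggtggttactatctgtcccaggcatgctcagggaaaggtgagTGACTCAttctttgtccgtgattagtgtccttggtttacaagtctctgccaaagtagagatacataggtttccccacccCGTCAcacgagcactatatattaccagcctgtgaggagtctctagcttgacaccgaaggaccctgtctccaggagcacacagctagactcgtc
Itln1: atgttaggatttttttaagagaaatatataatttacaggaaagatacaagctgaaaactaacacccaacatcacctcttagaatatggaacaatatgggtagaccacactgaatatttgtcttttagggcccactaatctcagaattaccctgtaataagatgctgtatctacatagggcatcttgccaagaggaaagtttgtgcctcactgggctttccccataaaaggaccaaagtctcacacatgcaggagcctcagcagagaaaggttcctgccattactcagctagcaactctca

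The 4 windows did not share 1 of the marked motifs. Mmp7 had an AP-1 site at −63 and, read on the other strand, a TCF/LEF core at 6, counted in bases from the start. The window of a second RefSeq start of Mmp7, at chr9:7692091-7692390 and not shown, had no AP-1 site and a TCF/LEF core at −246. Ang4 had an AP-1 site at −122 and, on the other strand, a CRE core at −43. The windows of Lyz1 and Itln1 held none of the 3. E-boxes (CANNTG), the motif bound by basic helix-loop-helix factors such as Atoh1, were in all 4 windows, with 3 in Lyz1, 2 in Mmp7, 2 in Ang4 and 1 in Itln1. Over the 32851 RefSeq windows of this length, 16% held the TCF/LEF core, 20.8% the CRE core, 7.8% the AP-1 site and 72.3% an E-box. A match of letters is a description and not a binding site. The window of Lyz1 and that of its neighbour Lyz2, the lysozyme of macrophages, were identical at 201 of 300 bases (67.0%).

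Whole organoid cultures held 3722716 to 6330404 unique molecular identifiers (UMIs, counts of single captured transcripts), the sorted cells of the second experiment 575242 to 1104126 and those of the irradiation experiment 1075715 to 1876729. Levels are given as CPM, which are counts scaled to a common library size with TMM factors, and differences on the log2 scale are edgeR estimates with the mouse as a block. The non-irradiated sorted cells of these 2 experiments held more of the stem cell marker Olfm4 (3625 to 6031 and 2468 to 4749 CPM) than most whole organoids (1144 to 3722 CPM). Irradiated cells held 1663 to 2071 CPM of Olfm4 without VIP and 2203 to 2755 CPM with it. Lgr5 itself was at 14.7 to 56.4 and 12.6 to 39.0 CPM in all sorted cells of the 2 experiments, against 45.2 to 115.8 CPM in whole organoids. The whole organoids came from a separate experiment with mice of another genotype, and whether the sort enriched Lgr5+ cells was not tested. Alpha-defensin transcripts made up 3310 to 14130 CPM of the sorted cells of the second experiment, so the levels below are those of a sorted population in which Paneth cell transcripts were abundant. One library stood apart. Of the 2 technical libraries of the VIP-treated organoids of mouse 3, the second differed from the first far more than in the other pairs. The chi-square per degree of freedom was 25.3, against 1.17 to 3.54 in the other pairs, most of which also differed beyond counting error. The second library held Clca1, a goblet cell gene, at 52.3 CPM, within the 40.2 to 60.9 CPM of the untreated libraries. The other VIP-treated libraries had 173 to 325 CPM. Whether this library carries the right label was not tested. For the 4 members, the VIP effect in whole organoids is given with and without it. The group levels, gene lists, correlations and the main comparison with sorted cells include it. Xist, which is expressed in females, and the Y-linked Ddx3y were both counted in every sample of the whole organoids and of the irradiation experiment. In whole organoids of mice 1 and 2, Xist was at 11.5 to 12.9 CPM and Ddx3y at 24.3 to 38.6 CPM. In whole organoids of mice 3 and 4, Xist was at 366.5 to 592 CPM and Ddx3y at 1.29 to 2.86 CPM. In mice 2 to 4 of the irradiation experiment Xist was at 24.3 to 58.9 CPM and Ddx3y at 3.30 to 14.9 CPM. Whether each of these lines held cells of 1 mouse alone, or reads crossed between libraries, was not tested, and the pairing by mouse rests on the labels.

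The 4 genes were expressed in every sample. Mean Lyz1 was 1910 CPM ± 1261 (SD, n = 3) in untreated whole organoids, 999.5 ± 438.5 (n = 4) in untreated sorted cells of the second experiment and 1112 ± 193.3 (n = 4) in those of the irradiation experiment. Mmp7 was at 210.0 CPM ± 113.2, 166.2 ± 45.0 and 180.4 ± 47.95 in the same 3 groups. Itln1 was at 2907 CPM ± 1590, 1073 ± 191.3 and 1832 ± 236.9. Ang4 differed most between the sorted populations, with 398.1 CPM ± 127.5 in whole organoids, 48.3 ± 25.2 in sorted cells of the second experiment and 177.4 ± 34.8 in sorted cells of the irradiation experiment. These groups belong to separate experiments, and the differences between them were not tested.

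**Figure D1:**
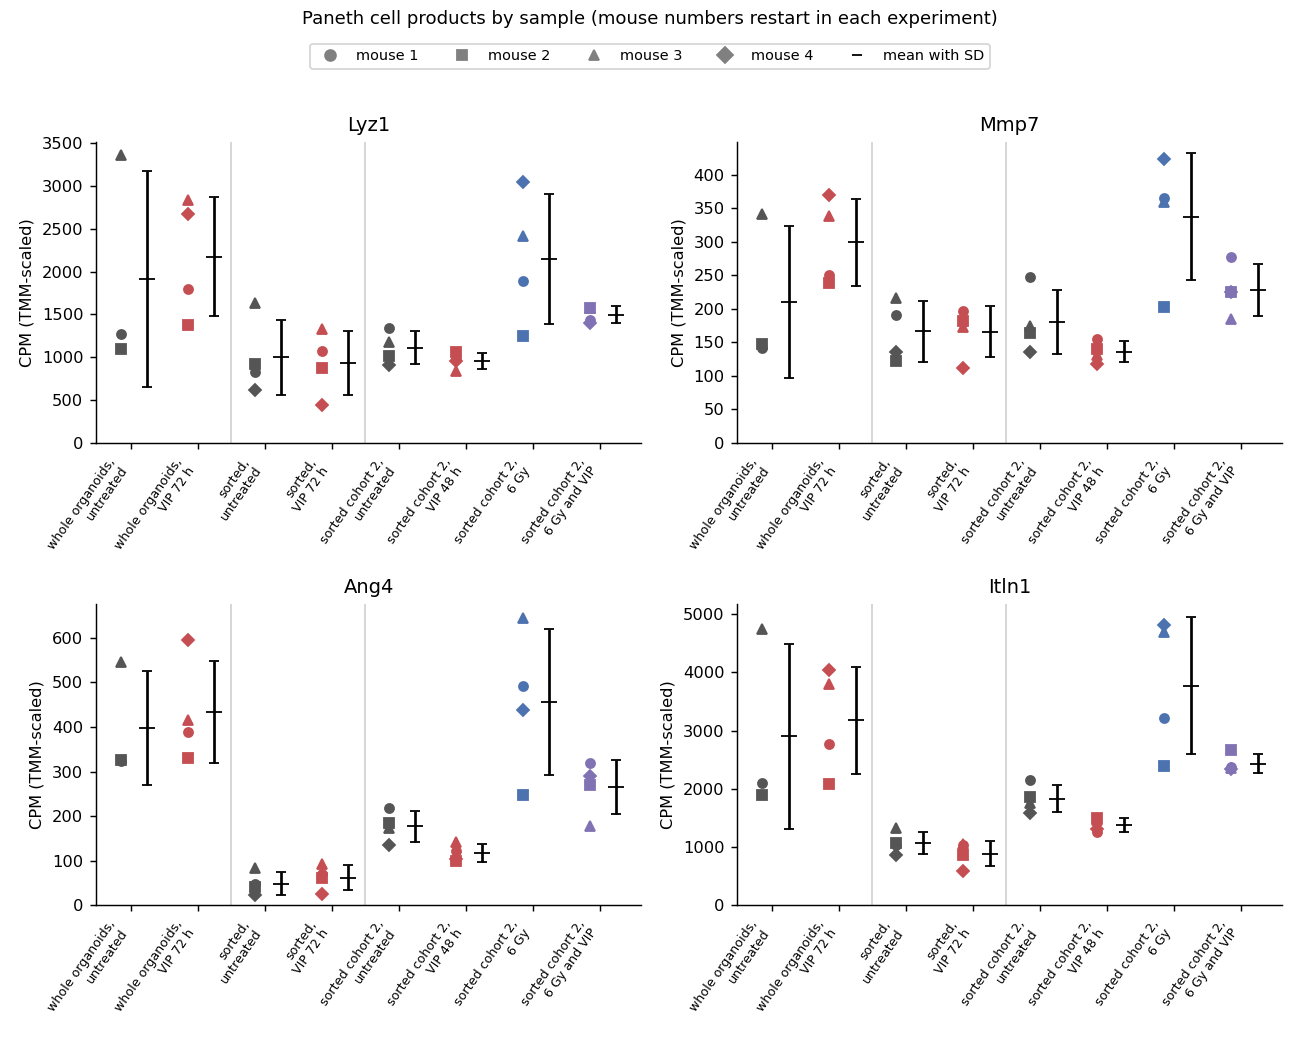
CPM of Lyz1, Mmp7, Ang4 and Itln1 in each sample (points) of the 8 groups, with the mean and SD of each group, where sorted cohort 2 is the irradiation experiment. For all 4 genes the irradiated samples without VIP have a higher mean than the non-irradiated ones, and Ang4 in the sorted cells of the second experiment is at 22.2 to 92.2 CPM, below all other groups.

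Ordered by group mean over all 8 groups, Lyz1 ran from 2171 CPM in VIP-treated whole organoids and 2148 CPM in irradiated cells without VIP down to 934.2 CPM in VIP-treated sorted cells of the second experiment. Neighbouring groups overlapped, except that irradiated cells with VIP (1498 CPM ± 94.7) lay above the next group, non-irradiated cells without VIP. Mmp7 ran from 337.1 CPM ± 94.5 in irradiated cells without VIP to 136.2 ± 15.7 in non-irradiated cells with VIP, and every group overlapped its neighbours. Ang4 ran from 455.8 CPM ± 163.6 in irradiated cells without VIP to 48.3 in untreated sorted cells of the second experiment, with gaps below untreated whole organoids and below non-irradiated cells with VIP. Itln1 ran from 3776 CPM ± 1178 in irradiated cells without VIP to 887.4 ± 217.0 in VIP-treated sorted cells of the second experiment, with gaps on both sides of the non-irradiated cells without VIP.

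Irradiation gave the clearest change. Without VIP, Lyz1, Mmp7, Ang4 and Itln1 were higher in irradiated than in non-irradiated Lgr5-EGFP+ cells of all 4 mice, by 1.84-fold to 2.50-fold, and all 4 passed the test, where 2.87% of the 9976 genes tested passed it as higher. Lyz1 was at 1347, 1017, 1181 and 904.4 CPM in the non-irradiated cells of mice 1 to 4 and at 1887, 1251, 2415 and 3038 CPM in the irradiated cells. The 2 groups overlapped, since the irradiated cells of mouse 2 were below the non-irradiated cells of mouse 1, and irradiated mice 3 and 4 were highest. Lyz1 rose by 0.93 on the log2 scale (SE 0.16, 95% confidence interval 0.60 to 1.25, 1.90-fold, edgeR adjusted p = 0.000565).

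Mmp7, the activating protease, was at 247.8, 164.0, 174.5 and 135.1 CPM without irradiation and at 365.0, 202.2, 358.4 and 422.8 CPM after it. It rose by 0.88 on the log2 scale (SE 0.14, interval 0.59 to 1.18, edgeR adjusted p = 0.000295), and again irradiated mouse 2 lay within the range of the non-irradiated cells. Ang4, the ribonuclease, was at 218.9, 184.0, 172.2 and 134.4 CPM without irradiation and at 492.8, 248.4, 644.4 and 437.7 CPM after it. Its groups did not overlap, and its rise was 1.32 on the log2 scale (SE 0.18, interval 0.96 to 1.68, 2.50-fold, edgeR adjusted p = 2.85e-05). Itln1, the lectin, was at 2144, 1853, 1751 and 1579 CPM without irradiation and at 3213, 2385, 4693 and 4812 CPM after it. Its groups did not overlap either, and it rose by 1.02 (SE 0.14, interval 0.74 to 1.31, 2.03-fold, edgeR adjusted p = 3.93e-05). How many of all genes had groups without overlap was not counted. Among all genes tested, 0.732% had a larger rise than Ang4, 1.81% than Itln1, 2.39% than Lyz1 and 2.65% than Mmp7.

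The size of the rise differed between mice, in the same order for Lyz1, Mmp7 and Itln1. Within mice 1 to 4, Lyz1 differed by 0.49, 0.30, 1.03 and 1.75 on the log2 CPM scale, Mmp7 by 0.56, 0.30, 1.03 and 1.64, and Itln1 by 0.58, 0.36, 1.42 and 1.61. Ang4 differed by 1.17, 0.43, 1.90 and 1.69. Mouse 2 had the smallest difference for all 4 genes and mice 3 and 4 the largest. The irradiated cells without VIP of mice 3 and 4 were also the shallowest libraries of this experiment, at 1075715 and 1122223 UMIs. With all 16 libraries thinned to the smallest, the 4 rises were 0.93, 0.88, 1.35 and 1.04 for Lyz1, Mmp7, Ang4 and Itln1, and all 4 passed the test, where 2.62% of genes passed as higher. Without mice 3 and 4, where 0.347% of genes passed as higher, the rises were 0.40, 0.44, 0.83 and 0.48, and of the 4 only Ang4 passed (edgeR adjusted p = 0.0177, against 0.488 for Lyz1, 0.353 for Mmp7 and 0.217 for Itln1).

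Among cells given VIP, irradiated ones again had more of all 4 transcripts in all 4 mice, by 1.56-fold to 2.27-fold. All 4 genes passed, where 4.32% of genes tested passed as higher. Lyz1 was at 979.7, 1057, 837.3 and 952.9 CPM without irradiation and at 1440, 1578, 1580 and 1396 CPM after it, a rise of 0.65 on the log2 scale (SE 0.16, interval 0.32 to 0.97, edgeR adjusted p = 0.00984). Mmp7 was at 155.3, 140.0, 131.8 and 117.8 CPM and then at 277.8, 225.4, 184.2 and 225.1 CPM, a rise of 0.74 (SE 0.15, interval 0.43 to 1.05, edgeR adjusted p = 0.00222). The groups of both genes did not overlap, which without VIP they did, although the rises without VIP were larger (0.93 for Lyz1 and 0.88 for Mmp7). The share of all genes whose groups did not overlap was not counted, for this or the other comparisons.

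Ang4 in VIP-treated cells was at 122.4, 99.4, 142.1 and 104.5 CPM without irradiation and at 319.5, 270.8, 178.2 and 290.0 CPM after it. The rise was 1.18 on the log2 scale (SE 0.19, interval 0.79 to 1.58, 2.27-fold, edgeR adjusted p = 0.000198), the largest of the 4 genes again, with mouse 3 the lowest irradiated sample. Itln1 was at 1259, 1493, 1464 and 1302 CPM without irradiation and at 2372, 2668, 2351 and 2349 CPM after it, a rise of 0.82 (SE 0.14, interval 0.53 to 1.11, 1.77-fold, edgeR adjusted p = 0.000373). Neither gene's groups overlapped. The call for Lyz1 was lost with DESeq2 (adjusted p = 0.114), without mouse 3 (edgeR adjusted p = 0.0991) and without mice 3 and 4 together (edgeR adjusted p = 0.0546), while Mmp7, Ang4 and Itln1 passed under all 15 alternatives tried.

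**Figure D2:**
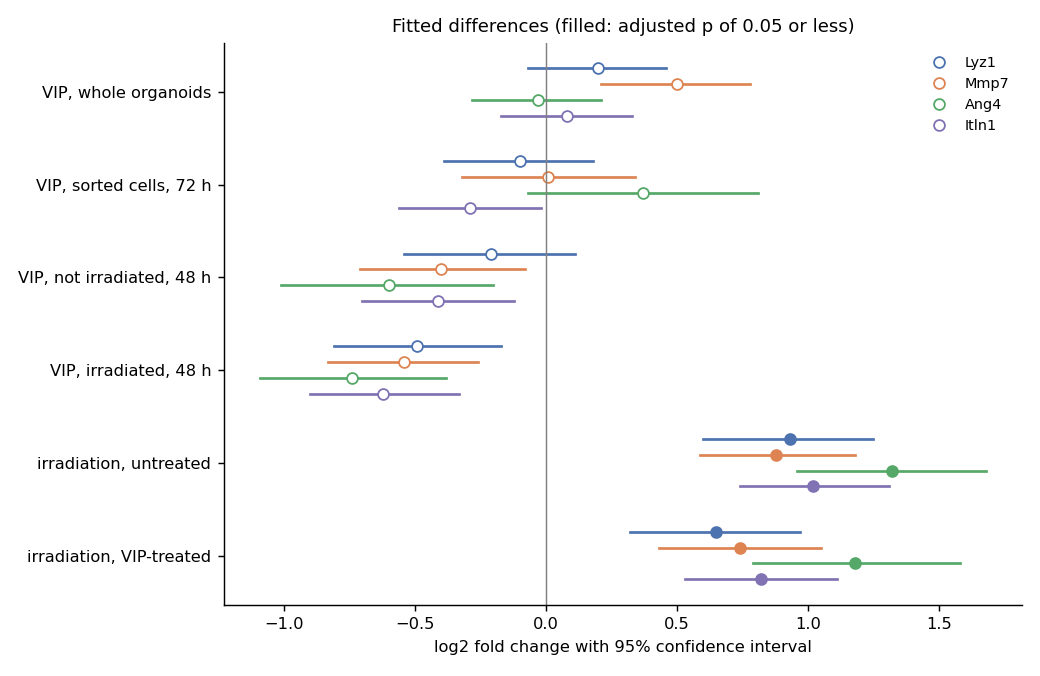
Log2 fold change of Lyz1, Mmp7, Ang4 and Itln1 (points) with its 95% confidence interval (lines) in 6 comparisons, filled where the adjusted p of edgeR is at most 0.05. The filled points are the 8 of the irradiation comparisons, between 0.65 and 1.32, and none of the VIP comparisons has one.

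The effect of VIP was compared without and after irradiation in the same experiment. These comparisons share samples with the irradiation comparisons, since the untreated non-irradiated cells are the control of both VIP and irradiation and the irradiated cells without VIP are the control of VIP after irradiation. Without irradiation, Mmp7, Ang4 and Itln1 were lower with VIP in 4 of 4 mice and Lyz1 in 2 of 4, and none of the 4 passed after adjustment, where 0.742% of genes passed. Ang4 had a log2 fold change of −0.60 (SE 0.20, interval −1.01 to −0.20, 0.659-fold, edgeR adjusted p = 0.168), with VIP-treated samples at 99.4 to 142.1 CPM and untreated ones at 134.4 to 218.9 CPM. These ranges overlapped only through mouse 3 with VIP and mouse 4 without it. The log2 fold change was −0.40 for Mmp7 (SE 0.15, edgeR adjusted p = 0.261), −0.41 for Itln1 (SE 0.14, 0.751-fold, edgeR adjusted p = 0.181) and −0.21 for Lyz1 (SE 0.16, edgeR adjusted p = 0.65). The VIP-treated samples of Itln1, at 1259 to 1493 CPM, all lay below the untreated ones, at 1579 to 2144 CPM. How many of all genes separated in this way, or were lower in 4 of 4 mice, was not counted.

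At an unadjusted p below 0.05, 3 of the 4 genes were lower (Mmp7, Ang4 and Itln1), where 5.73% of genes tested were. When the 8 non-irradiated samples were fitted alone, these 3 passed after adjustment, where 2.01% of genes tested passed (0.875% as lower), at −0.39 for Mmp7 (edgeR adjusted p = 0.0192), −0.59 for Ang4 (edgeR adjusted p = 0.0017) and −0.41 for Itln1 (edgeR adjusted p = 0.00403). The fold changes were nearly those of the fit to all 16 samples, and the calls differed.

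After irradiation, VIP-treated cells had less of all 4 transcripts in mice 1, 3 and 4 and more of all 4 in mouse 2, and no member passed the test, where 0.221% of genes passed. The log2 fold change was −0.62 for Itln1 (SE 0.14, interval −0.90 to −0.33, 0.653-fold, edgeR adjusted p = 0.0607) and −0.74 for Ang4 (SE 0.17, interval −1.09 to −0.38, 0.60-fold, edgeR adjusted p = 0.0712). It was −0.54 for Mmp7 (SE 0.14, edgeR adjusted p = 0.142) and −0.49 for Lyz1 (SE 0.16, edgeR adjusted p = 0.416). At an unadjusted p below 0.05 all 4 were lower, where 2.92% of genes tested were. Within mice 1 to 4 the difference of Ang4 was −0.62, 0.12, −1.85 and −0.59 on the log2 CPM scale and that of Itln1 −0.44, 0.16, −1 and −1.03.

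The calls on VIP after irradiation changed with the mice that were included and with depth. Without mouse 2, where 0.348% of genes passed, all 4 members passed (edgeR adjusted p = 0.011 for Lyz1, 0.00505 for Mmp7, 0.00449 for Ang4 and 0.00204 for Itln1), and with libraries thinned to the smallest, where 0.232% of genes passed, Ang4 and Itln1 passed (edgeR adjusted p = 0.0319 and 0.048). Without mice 3 and 4, the log2 fold changes were −0.03 for Lyz1, −0.13 for Mmp7, −0.28 for Ang4 and −0.14 for Itln1, all with an edgeR adjusted p of 1.

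**Figure D3:**
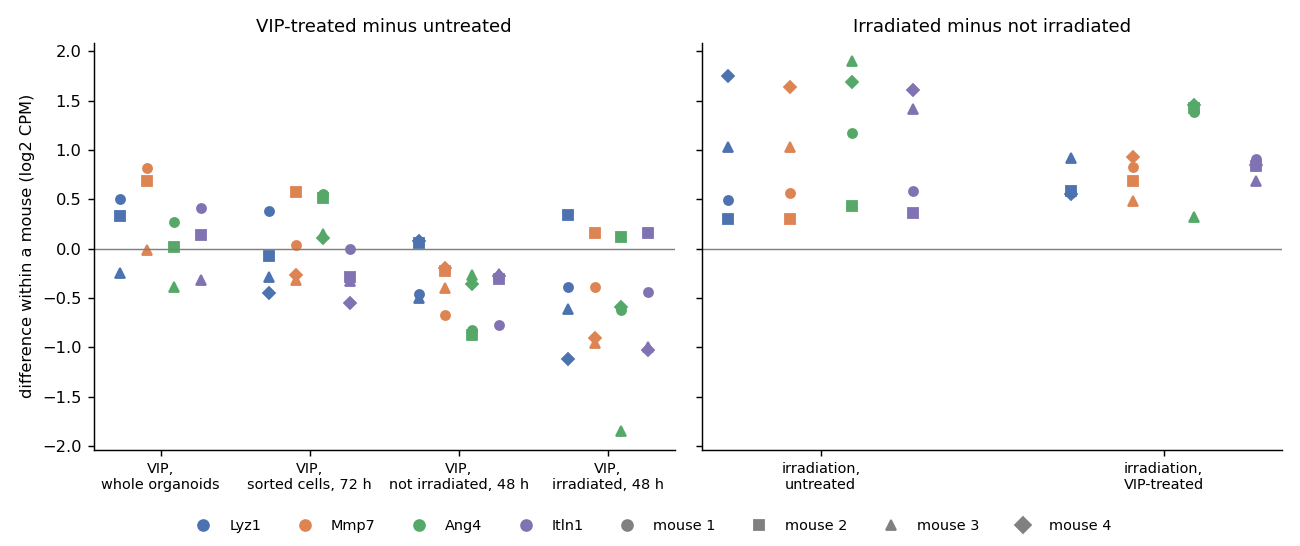
Difference of log2 CPM between the paired samples of each mouse (points) for Lyz1, Mmp7, Ang4 and Itln1 in each comparison, with a line at 0. All 4 mice are above 0 for all 4 genes in both irradiation comparisons, while after irradiation mouse 2 is above 0 and mice 1, 3 and 4 are below 0 in the VIP comparison.

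Whether the difference with irradiation depended on the VIP treatment that followed it was tested with an interaction term. The difference of the effects was −0.28 for Lyz1 (SE 0.22, interval −0.74 to 0.17), −0.14 for Mmp7 (SE 0.21, interval −0.57 to 0.28), −0.14 for Ang4 (SE 0.26, interval −0.68 to 0.40) and −0.20 for Itln1 (SE 0.20, interval −0.61 to 0.20). Their edgeR adjusted p ran from 0.909 to 0.972, so no difference was detected, and the lower ends of the intervals lie between −0.74 and −0.57. Of all genes tested 0% passed in edgeR and 0 in DESeq2, with 634 genes at an unadjusted p below 0.05 in edgeR. Without mice 3 and 4 the sign turned for all 4 genes, to 0.18, 0.33, 0.59 and 0.40 for Lyz1, Mmp7, Ang4 and Itln1.

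In whole organoids, VIP for 72 h left Lyz1, Ang4 and Itln1 without a detected change, and Mmp7 was the member nearest to a call. None of the 4 passed, where 4.82% of the 12727 genes tested passed. Mmp7 was at 141.5, 147.9 and 340.7 CPM in untreated mice 1 to 3 and at 249.8, 239.1, 338.1 and 368.8 CPM in VIP-treated mice 1 to 4. It was higher with VIP in mice 1 and 2 and about level in mouse 3, whose untreated sample was as high as the VIP-treated ones. Its log2 fold change was 0.50 (SE 0.13, interval 0.21 to 0.78, 1.41-fold, edgeR adjusted p = 0.0522). The VIP-treated sample of mouse 4 has no untreated partner. Its own block fits it exactly, so it enters this paired estimate only indirectly, as through the scaling and the filter on low counts. Without it the log2 fold change was 0.50 (edgeR adjusted p = 0.0532).

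Lyz1 was at 1272, 1096 and 3363 CPM in untreated organoids and at 1799, 1381, 2831 and 2672 CPM with VIP, a log2 fold change of 0.20 (SE 0.12, interval −0.07 to 0.46, edgeR adjusted p = 0.481). Itln1 was at 2092, 1890 and 4739 CPM and at 2771, 2082, 3802 and 4044 CPM, a log2 fold change of 0.08 (SE 0.12, interval −0.17 to 0.33, edgeR adjusted p = 0.822). Ang4 was at 323.3, 325.6 and 545.3 CPM and at 389.7, 329.6, 416.5 and 596.2 CPM, a log2 fold change of −0.03 (SE 0.11, interval −0.28 to 0.21, edgeR adjusted p = 0.925). For all 4 genes the untreated organoids of mouse 3 were far above those of mice 1 and 2, and the groups overlapped. Each of the 4 was lower with VIP in mouse 3 and higher in mice 1 and 2, by −0.25, 0.50 and 0.33 for Lyz1, for example.

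The calls for Mmp7 and Lyz1 turned on the library that stood apart. In the first and second libraries of the VIP-treated organoids of mouse 3, Lyz1 was at 3570 and 1524 CPM, Mmp7 at 419.2 and 193.3 CPM, Itln1 at 4308 and 2817 CPM and Ang4 at 381.6 and 452.1 CPM. Lyz1 thus differed 2.34-fold between 2 libraries of 1 culture. In mouse 4 with VIP the 2 libraries differed too, at 3250 and 1932 CPM of Lyz1 (1.68-fold), and in the other pairs Lyz1 differed by 1.01-fold to 1.23-fold. Without the second library of mouse 3, Mmp7 and Lyz1 passed the test, at 0.62 (SE 0.09, interval 0.43 to 0.81, 1.54-fold, edgeR adjusted p = 0.000936) and 0.32 (SE 0.08, interval 0.16 to 0.49, 1.25-fold, edgeR adjusted p = 0.0191), both higher in 3 of 3 mice, and 9.94% of all genes passed. Itln1 was then at 0.15 (edgeR adjusted p = 0.307) and Ang4 at −0.06 (edgeR adjusted p = 0.809). Without the first library instead, Mmp7 was at 0.24 (edgeR adjusted p = 0.947), Lyz1 at −0.10, and 0 of all genes passed.

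**Figure D4:**
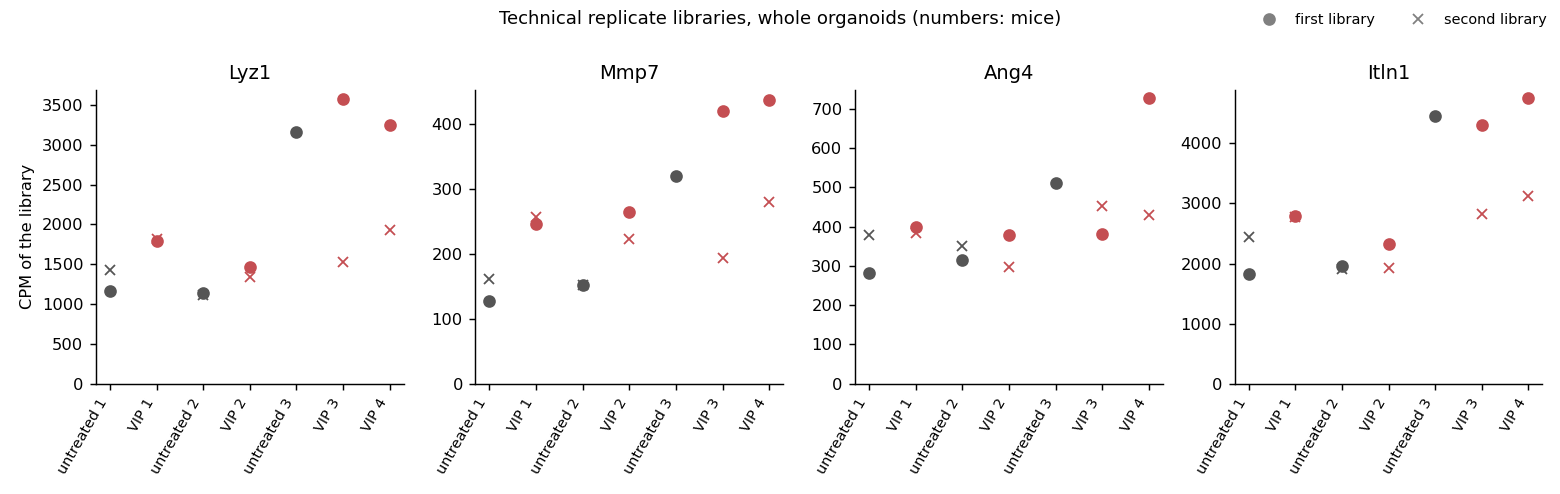
CPM of Lyz1, Mmp7, Ang4 and Itln1 in each technical library of the whole organoid cultures, with first libraries as circles and second libraries as crosses. The libraries of VIP-treated mouse 3 are far apart for Lyz1, at 3570 and 1524 CPM, whereas those of VIP-treated mice 1 and 2 are close together.

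In sorted Lgr5-EGFP+ cells after 72 h of VIP, none of the 4 genes passed, where 0.0885% of the 6778 genes tested passed. Ang4 was at 47.0, 41.5, 82.6 and 22.2 CPM in untreated cells of mice 1 to 4 and at 70.1, 60.2, 92.2 and 24.2 CPM with VIP. It was higher with VIP in 4 of 4 mice, but the mice differed more than the treatment and the groups overlapped (log2 fold change 0.37, SE 0.22, interval −0.07 to 0.81, edgeR adjusted p = 0.903). Only 13 to 75 UMIs of Ang4 were counted per sample. Itln1 was at 1041, 1066, 1325 and 860.4 CPM untreated and at 1040, 871.0, 1052 and 586.4 CPM with VIP, lower in 4 of 4 mice though by almost nothing in mouse 1 (log2 fold change −0.29, SE 0.13, interval −0.56 to −0.02, edgeR adjusted p = 0.884).

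Lyz1 in these cells was at 828.5, 925.6, 1628 and 615.8 CPM untreated and at 1077, 876.6, 1334 and 449.1 CPM with VIP (log2 fold change −0.10, SE 0.14, interval −0.39 to 0.18, edgeR adjusted p = 0.967). Mmp7 was at 191.2, 122.1, 216.6 and 135.1 CPM untreated and at 197.1, 182.5, 172.5 and 111.5 CPM with VIP (log2 fold change 0.01, SE 0.16, interval −0.32 to 0.34, edgeR adjusted p = 0.998). Mouse 4 was the lowest sample of both genes with VIP, and treated and untreated samples overlapped throughout. The difference between the VIP effect in sorted cells and in whole organoids was −0.30 for Lyz1, −0.48 for Mmp7, 0.41 for Ang4 and −0.37 for Itln1 (SE 0.20 to 0.24), with edgeR adjusted p of 0.791 to 0.898, where 0.147% of genes passed. With the non-irradiated cells of the irradiation experiment in place of these sorted cells, treated for 48 h and not 72 h, the difference for Mmp7 was −0.87 (edgeR adjusted p = 0.0121), where 1.33% of genes passed.

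Other Paneth cell genes were taken from lists, each described by its count and median log2 fold change, beside a median of all genes tested between −0.004 and 0.012. With irradiation and no VIP, 2.87% of all genes tested passed as higher and 1.59% as lower. Of the alpha-defensins tested 13 of 13 rose, with a median of 1.59 against 0.98 for the 4 members. Examples are Defa3 at 2.26 (edgeR adjusted p = 9.82e-06), Defa17 at 1.40 (edgeR adjusted p = 2.3e-05) and Defa38 at 2.35 (edgeR adjusted p = 9.47e-05), although reads may be divided between these near-identical copies. Of 11 other Paneth cell genes tested 5 rose and 1 fell (median 0.74), with the secreted phospholipase Pla2g2a at 0.97, colipase (Clps) at 0.74 and Cd177, a surface protein best known from neutrophils, at −0.81. None of 9 genes of secretory and Paneth cell specification passed (median −0.13), and none of 9 genes of granule formation and release (median 0.03).

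Among cells given VIP, irradiated ones had 9 of 13 alpha-defensins higher (median 1.34, with Defa30 at 1.28, Defa38 at 2.68 and Defa17 at 1.06). Of all genes tested 4.32% passed as higher. Of other Paneth cell genes 6 of 11 were higher (median 0.51, with Reg3b, an antimicrobial lectin, at 1.52, Clps at 1.03 and Pla2g2a at 0.76). Of 9 specification genes 1 was higher. That gene was Ctnnb1, which encodes beta-catenin, at 0.66 (edgeR adjusted p = 0.000963). The median of the 4 members was 0.78.

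Markers of other cell types moved with irradiation as well. Of all genes tested, 2.87% passed as higher without VIP and 4.32% among cells given VIP. Without VIP, 5 of 7 goblet cell markers were higher (median 1.08), with the mucin Muc2 at 1.27, Zg16 at 1.71, Tff3 at 0.53, Spink4 at 0.57 and Fcgbp at 1.08. Of 9 enteroendocrine markers 5 were higher (median 0.72), with the granins Chgb at 1.01 and Chga at 0.93, the hormone genes Tac1 at 0.62 and Sct at 0.72, and Tph1, of serotonin synthesis, at 0.95. Of 9 enterocyte markers 3 were higher (median 0.82), with the fatty acid binding protein Fabp1 at 0.87, Apoa1 at 1.29 and the glucose transporter Slc5a1 at 0.59, and 0 of 5 tuft cell markers passed (median 0.44). Of 8 stem cell markers 2 were lower, Olfm4 at −0.64 and Smoc2 at −0.31, where 1.59% of genes tested passed as lower.

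Among cells given VIP, irradiated ones had 3 of 7 goblet cell markers higher (median 0.56, Tff3 at 0.60, Spink4 at 0.54 and Muc2 at 0.80). Of enteroendocrine markers 8 of 9 were higher (median 1.03, for example Chgb at 1.11, Cck at 1.34 and Gcg at 1.61). None of 5 tuft cell markers passed (median 0.23). Of 8 stem cell markers 3 were lower (median −0.30, Olfm4 at −0.86, Cdca7 at −0.36 and Smoc2 at −0.31), where 3.46% of genes tested passed as lower.

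In cells without VIP, the summed alpha-defensins were at 8112 to 12080 CPM without irradiation and 11900 to 22920 CPM after it, goblet cell markers at 5407 to 8327 and 7197 to 10250 CPM, enteroendocrine markers at 2556 to 3275 and 3781 to 7191 CPM, and stem cell markers at 3378 to 4472 and 2434 to 2865 CPM. In cells with VIP, the alpha-defensins were at 6759 to 7745 CPM without irradiation and 11460 to 13740 CPM after it, enteroendocrine markers at 1648 to 4411 and 5037 to 9124 CPM, and stem cell markers at 5337 to 5808 and 3052 to 3674 CPM. The part of these shifts in the results for the 4 members was not tested. Leukocyte markers summed to at most 9.41 CPM in all samples of the irradiation experiment.

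**Figure D5:**
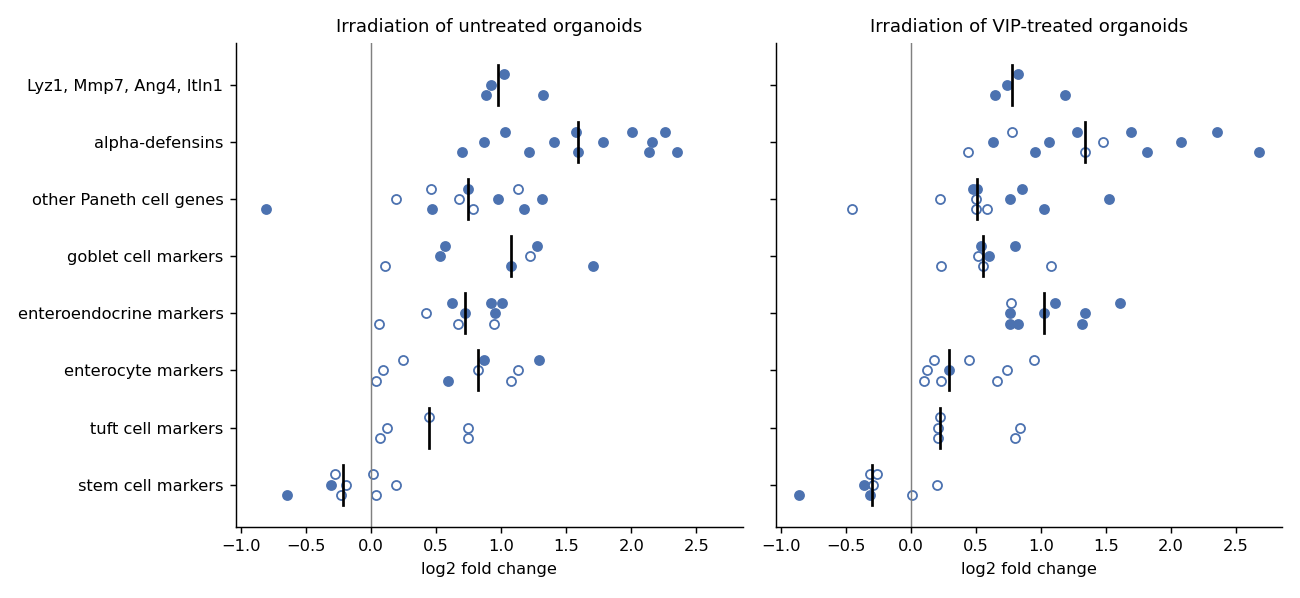
Log2 fold change with irradiation, without and with VIP, of each gene tested (points, filled where the adjusted p of edgeR is at most 0.05) in the lists of Paneth cell and other cell type genes, with the median of each list as a line. The alpha-defensins (medians 1.59 and 1.34) and the 4 members (0.98 and 0.78) lie above 0, and the stem cell markers (−0.21 and −0.30) mostly below.

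With VIP in whole organoids 6 of 7 goblet cell markers rose (median 0.70, with Clca1 at 2.08, Zg16 at 1.67 and Agr2, which also acts in granule formation, at 0.73), while 0 of 17 alpha-defensins passed (median 0.12). Of all genes tested 3.72% passed as higher and 1.1% as lower. These values include the second library of VIP-treated mouse 3, and the lists were not counted without it. Of 14 other Paneth cell genes Pnliprp2, a lipase, rose (0.62) and the antimicrobial lectins Reg3a (−1.16) and Reg3b (−0.53) fell. Atoh1, the factor of the secretory fate, rose by 0.50 (edgeR adjusted p = 0.0324), as did Mmp23, of the family of Mmp7, by 1.44 (edgeR adjusted p = 0.0127), and the enteroendocrine hormone gene Cck by 0.53. Of the enterocyte markers Alpi (1.35) and Vil1 (0.38) rose and Fabp1 (−0.49) fell.

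In the sorted cells after 72 h of VIP, Defa3 (1.27) and Defa38 (1.61) rose out of 9 alpha-defensins tested, and the goblet cell gene Fcgbp fell (−0.97, edgeR adjusted p = 0.00511). Of all genes tested 0.059% passed as higher and 0.0295% as lower. Against whole organoids the VIP effect was higher for Defa29 (2.81) and Reg3a (1.97) and lower for Fcgbp (−1.67), Zg16 (−2.22) and Tff3 (−1.12). In the non-irradiated cells after 48 h of VIP, 0 of 13 alpha-defensins passed, with a median of −0.49 and no gene above 0, beside a median of −0.41 for the 4 members. The medians of the goblet cell (−0.36) and enterocyte markers (−0.41) were also below 0, and Fabp1 (−0.95, edgeR adjusted p = 0.0128) and Fabp2 (−0.41, edgeR adjusted p = 0.014) fell in 4 of 4 mice. Olfm4 rose there by 0.57 in 4 of 4 mice (edgeR adjusted p = 4.82e-05).

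After irradiation the medians under VIP were −0.58 for the 4 members, −0.66 for the alpha-defensins, −0.66 for the goblet cell and −0.58 for the enterocyte markers. Of these lists Defa-ps6 (−2.62), Fcgbp (−1.05) and Fabp1 (−1.37) fell, and Olfm4 rose by 0.35 (edgeR adjusted p = 0.0176). The part of these shifts in the values of the 4 members was not tested.

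Close relatives of the members did not always follow them. Of the ribonucleases related to Ang4, Rnase1 was higher after irradiation without VIP (0.68, edgeR adjusted p = 0.00407) and with it (0.55, edgeR adjusted p = 0.0232), and lower with VIP after irradiation (−0.69, edgeR adjusted p = 0.0297). Rnase4 (0.07 and 0.10) and Ang (−0.01 and 0.33) did not pass in either irradiation comparison, and Ang2, Ang5 and Ang6 had at most 5 UMIs in a sample. Lyz2 had 4 to 17 UMIs in whole organoids and 0 to 6 in the sorted cells, although 17.7% of 50-base windows in the last 500 bases of the Lyz1 transcript occur in Lyz2 too. For Ang4 this share was 6.9% (Ang2 and Ang5) and for Mmp7 and Itln1 0%. Of 5 matrix metalloproteinases and inhibitors tested in the irradiation experiment, Mmp7 alone passed without VIP. The antisense gene AV064505, which overlaps Mmp7, had at most 3 UMIs in a sample. Itln1 was the sole intelectin counted.

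Across the 30 samples of mice with more than 1 sample, after the mean of each mouse was subtracted, the 3 genes most like each member among 6730 genes were other members or alpha-defensins. The Pearson correlation of log2 CPM with Lyz1 was 0.96 for Defa17, 0.95 for Itln1 and 0.93 for Mmp7, and that with Itln1 was 0.98 for Defa17, 0.95 for Lyz1 and 0.94 for Defa24. Mmp7 was most like Lyz1 (0.93), Itln1 and Defa17 (both 0.92), and Ang4 was most like Defa39 (0.91), Itln1 (0.90) and Mmp7 (0.89). Spearman's rho was 0.76 to 0.97 for these pairs, and without the 2 samples farthest from the median r was 0.84 to 0.96. Lyz1 and Ang4 were the least alike of the members (r = 0.84, rho = 0.73), with Ang4 in position 13 among the genes most like Lyz1. These are descriptions over samples that share libraries and treatments, and they include the irradiation samples in which all 4 genes rose.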

How the data were processed

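RNA was measured in 37 libraries of 31 cultures. Libraries were made by the authors from the 3′ ends of poly(A) RNA, each read carrying a sample barcode and a UMI, and were counted with Drop-seq 1.0 (genome GRCm38, annotation GENCODE M25). What they deposited is the count of UMIs of every gene in every library, not normalized, and 0 columns were without a sample. A fragment near the 3′ end stands for each transcript, so reads shared with a close copy of a gene can be placed wrongly or dropped.

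Technical libraries of a culture were summed. Counts were fitted in R 4.3.3 with edgeR 4.0.16 (TMM, filterByExpr by group, quasi-likelihood tests blocked by mouse, Benjamini-Hochberg adjustment over all genes tested, threshold 0.05). Standard errors are the absolute log2 fold change divided by the root of F, and intervals are 95%. Log2 CPM used a prior count of 2. Pairing comes from the labels, in which a number is 1 mouse and its organoid line. Deviations from the group mean correlated at 0.27 to 0.63 within a mouse and −0.54 to 0.33 between mice in whole organoids, 0.03 to 0.21 and −0.14 to 0.15 in sorted cells, and −0.07 to 0.16 and −0.20 to 0.20 in the irradiation experiment. Samples of a group came from separate mice.

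The members and gene lists were chosen with earlier results of these data known. Genes named are the members, their counted family members, genes of a list past the threshold (the 3 with the smallest p where over 5 passed) and the 3 genes most like each member. Results for 1 enterocyte marker are not reported here. Lgr5 and Olfm4 were named to check the sort, and they did not settle it. Without irradiation, Olfm4 was mostly higher in sorted cells than in whole organoids and Lgr5 mostly lower. Clca1 by library, Xist and Ddx3y were named after their values were seen. Alternatives were RLE factors, DESeq2 1.42.0, no filter, no block, first libraries only, smaller fits and each mouse left out. Others were added after the data were seen: leaving out the first library of VIP-treated mouse 3, cells of the irradiation experiment in the test of compartments, thinned counts, and mice 3 and 4 left out together. The edgeR fit was tested on simulated counts with the same spread for all genes and no differences between mice. That test does not show how the fit handles paired mice or a library that stands apart. Positions are from GENCODE M21 and promoter sequences from RefSeq, both on GRCm38.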

Additional observations from a re-analysis of the deposited data

Results flagged for a closer look

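Itln1 in the irradiated, VIP-treated cells had 1 sample away from the others. Mouse 2 was at 2668 CPM and the other 3 mice at 2349 to 2372 CPM, a gap of 0.929 of the range of the group, above the critical value of Dixon's test for 4 samples. Chance passes that critical value in about 1 in 20 groups. The same screen covered every group of 4 samples for each of the 4 genes and flagged no other. The spread of this group was small (2435 CPM ± 155.7, SD, n = 4).

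The direction of Ang4 under VIP differed between the non-irradiated sorted cells of the 2 experiments. It was higher with VIP in 4 of 4 mice after 72 h and lower in 4 of 4 mice after 48 h, a gap of 0.92 between the mean differences on the log2 CPM scale. The difference was not tested, neither effect passed the test on its own, and the time of treatment cannot be told apart from the experiment, in which the untreated level of Ang4 was 177.4 CPM against 48.3 CPM in the other.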

How the results depend on the processing

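The rises with irradiation kept their direction under all alternatives for all 4 genes. Calls without VIP held under 14 of 15 alternatives for Lyz1, Mmp7 and Itln1 and under all 15 for Ang4. Without mice 3 and 4, where 0.347% of genes passed as higher, 1 of the 4 passed. The fit without the replicate block changed no call of a member, and of the members' directions it turned 1, Ang4 under VIP in whole organoids (0.12). In that fit 99 genes passed for VIP in whole organoids against 614 in the paired fit, 34 against 74 for VIP without irradiation, 12 against 22 for VIP after it, 1 against 6 in sorted cells and 0 against 15 between compartments. DESeq2 gave 300, 74, 12, 2 and 20 in the same order, and 281 against 445 for irradiation without VIP and 489 against 776 with VIP.

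The count of members that passed moved as follows, from 0. Shares in brackets are those of all genes tested that passed. In whole organoids (4.82% in the main fit) it was 1 with all genes of any count (3.57%). It was 2 with first libraries only (7.76%) and 2 without the second library of VIP-treated mouse 3 (9.94%). With 1 mouse left out it was 0 to 3, with 3 without mouse 3 (12.8%, against 2.84% to 4.8% without another mouse). For VIP without irradiation (0.742% in the main fit) it was 3 with all genes of any count (0.661%). It was 3 with non-irradiated samples alone (2.01%) and 1 without mice 3 and 4 (0.188%). For VIP after irradiation (0.221% in the main fit) it was 4 with all genes of any count (0.399%) and 2 with thinned counts (0.232%). With 1 mouse left out it was 0 to 4, with 4 without mouse 2 (0.348%, against 0.0498% to 0.251% without another mouse). Between compartments (0.147% in the main fit) it was 1 with cells of the irradiation experiment (1.33%). In the fit to all genes of any count edgeR's prior degrees of freedom became infinite.

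Directions that turned were of log2 fold changes near 0 or with wide intervals. Under VIP in whole organoids Ang4 was at 0.12 with first libraries only, and without the first library of VIP-treated mouse 3 Lyz1 was at −0.10, Ang4 at 0.001 and Itln1 at −0.071. With 1 mouse left out Ang4 ran from −0.19 to 0.14 and Itln1 from −0.089 to 0.27. In sorted cells Mmp7 was at −0.001 with RLE factors and −0.004 with DESeq2, and with 1 mouse left out at −0.18 to 0.13, with Lyz1 at −0.27 to 0.001. For the interaction with irradiation, 1 mouse left out gave −0.42 to 0.042 for Lyz1, −0.30 to 0.033 for Mmp7 and −0.49 to 0.34 for Ang4, and leaving out mice 3 and 4 gave 0.18, 0.33, 0.59 and 0.40 for Lyz1, Mmp7, Ang4 and Itln1. Between compartments Ang4 was at −0.54 with cells of the irradiation experiment. The causes were not tested. Ang4 had 13 to 75 UMIs per sample in the sorted cells of the second experiment, which limits the precision of its values there.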
